A study of Homo sapiens with 4 samples.

Results

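Bidirectional coding promoters are stretches of DNA from which a pair of protein-coding genes is transcribed in opposite directions. To describe their chromatin accessibility in MLL-r leukemia cells, consensus ATAC-seq peaks were taken that lay within 1 kb of the annotated starts of 2 different protein-coding genes on opposite strands, transcribed away from each other from starts at most 1 kb apart (GENCODE basic annotation, release 44 on hg19). This rule gave 1799 of the 139872 consensus peaks, and they carried the names of 1062 distinct gene pairs. For comparison, 16828 peaks lay within 1 kb of the starts of a single coding gene that belonged to no such pair. A further 987 peaks lay near coding starts in another arrangement, and 120258 lay beyond 1 kb of any coding start.

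The cells were SEM, a B cell precursor leukemia line with an MLL rearrangement. All libraries, the controls included, came from cells carrying dCas9-KRAB, a catalytically dead Cas9 fused to a repressor domain, with blasticidin resistance (dCas9-KRAB-BSD). ATAC-seq, in which the Tn5 transposase cuts and tags open DNA, was performed on 2 libraries whose guide, sgFLT3-DE-1, was directed at the distal FLT3 enhancer bound by HOXA9, and on 2 libraries with a non-target guide (sgNT). The labels do not state whether the 2 libraries of a guide came from separate cultures, so p-values measured only the spread between libraries.

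When the starts of a divergent pair lie close together, one nucleosome-depleted region can serve both genes, and transcription factors bound in it lie upstream of each. Such promoters are typically rich in CpG dinucleotides and poor in TATA boxes, and they are common among housekeeping genes for DNA repair, mitochondrial function and the cell cycle. Divergent transcription is not confined to coding pairs, since many single-gene promoters also start a noncoding RNA in the upstream direction.

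The libraries held between 2683477 and 4831164 counts in consensus peaks. At the peak that holds the guide site, chr13:28842815-28843351, sgNT gave 378 and 350 counts, sgFLT3-DE-1 214 and 338. In CPM, counts per 1000000 after normalisation, these were 133 ± 9.76 and 70.4 ± 6.11 (SD, n = 2 each). The fitted log2 fold change there was -0.92 (SE 0.26), with an adjusted p of 1 by edgeR's quasi-likelihood test over 82558 peaks. Of the marker genes of B cell precursors, 10 of 12 had a start within 1 kb of some consensus peak, as had 4 of 4 genes of the MLL-rearranged programme, 3 of 6 T cell, 4 of 6 myeloid and 1 of 6 erythroid markers. The summed CPM of the B cell precursor markers ranged from 175 to 213 with sgFLT3-DE-1 and from 185 to 213 with sgNT. The erythroid list rested on HBB alone, at 239 to 573 CPM with sgFLT3-DE-1 and 45.2 to 60.8 CPM with sgNT, and the part of this difference in the results below was not tested.

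The DNA between divergent starts is shown for pairs that later results turn on. In each line capitals mark matches, on either strand, to the promoter motifs searched here. These were ETS (CCGGAAG), NRF1 (CGCATGCG), the NF-Y CCAAT box (CCAAT), the SP/KLF GC box (GGGCGG), YY1 (AAGATGGCG), the CRE of CREB and ATF (TGACGTCA), BANP (CTCGCGAG), ZNF143 (ACTACAA), the TATA box (TATAAA), the E-box (CACGTG) and the heat shock element (GAANNTTC). GC boxes can overlap each other in a run. The first pair of sequences spans the whole interval between the starts and held no annotated exon: SARS2/MRPS12 is a classical pair of a mitochondrial seryl-tRNA synthetase and a mitochondrial ribosomal protein with 4 CCAAT boxes in 180 bp, and ALG12/CRELD2 was the pair whose peak over both starts had the smallest p between guides.
SARS2/MRPS12, chr19:39421404-39421583, plus strand: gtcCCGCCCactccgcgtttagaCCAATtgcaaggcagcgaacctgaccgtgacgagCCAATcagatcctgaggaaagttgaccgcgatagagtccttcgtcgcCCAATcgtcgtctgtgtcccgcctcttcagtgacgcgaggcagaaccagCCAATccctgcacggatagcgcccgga
ALG12/CRELD2, chr22:50312087-50312281, plus strand: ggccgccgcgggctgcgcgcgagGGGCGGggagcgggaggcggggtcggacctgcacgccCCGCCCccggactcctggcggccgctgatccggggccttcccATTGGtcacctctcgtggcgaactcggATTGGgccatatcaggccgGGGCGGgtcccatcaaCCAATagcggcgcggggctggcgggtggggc

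The next lines give the longest stretch free of annotated exons between the starts of 5 more pairs, picked after their values were seen to show an ETS match, an NRF1 match, a CRE, a TATA box and paired CCAAT boxes, and because KBTBD3/AASDHPPT was among the most accessible members.
KBTBD3/AASDHPPT, chr11:105948187-105948388, plus strand: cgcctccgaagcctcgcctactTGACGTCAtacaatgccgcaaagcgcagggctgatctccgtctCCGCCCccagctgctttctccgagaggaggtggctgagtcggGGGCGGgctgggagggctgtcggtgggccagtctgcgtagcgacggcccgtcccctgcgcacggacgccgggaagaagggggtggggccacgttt
TRMT6/MCM8, chr20:5931205-5931297, plus strand: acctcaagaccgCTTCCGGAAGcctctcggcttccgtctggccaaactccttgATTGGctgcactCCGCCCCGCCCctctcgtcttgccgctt
EXOSC1/ZDHHC16, chr10:99205764-99205926, plus strand: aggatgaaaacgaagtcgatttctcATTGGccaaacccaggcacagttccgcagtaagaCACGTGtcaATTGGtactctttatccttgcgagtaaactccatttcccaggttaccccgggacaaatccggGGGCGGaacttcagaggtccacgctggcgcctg
U2AF1L4/PSENEN, chr19:36236347-36236500, plus strand: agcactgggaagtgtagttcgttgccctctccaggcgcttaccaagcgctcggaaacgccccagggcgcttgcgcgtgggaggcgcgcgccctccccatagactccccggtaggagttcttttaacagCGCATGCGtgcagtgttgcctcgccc
TK1/AFMID, chr17:76183315-76183442, plus strand: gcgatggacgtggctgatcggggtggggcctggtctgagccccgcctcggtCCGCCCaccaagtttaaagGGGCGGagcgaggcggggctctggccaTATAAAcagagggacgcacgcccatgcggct
The stretches of the TRMT6/MCM8 and EXOSC1/ZDHHC16 promoters measured 93 and 163 bp, with 5 and 4 motif matches. In TRMT6/MCM8, which pairs a tRNA methyltransferase subunit with a helicase of homologous recombination, the 2 ETS matches overlapped as inverted copies. The TATA match of TK1/AFMID lies between the starts of thymidine kinase and arylformamidase.

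To ask how often divergent pairs were accessible, annotated pairs were counted directly. The annotation held 1293 divergent pairs with 2510 of 19825 coding genes (12.7%). Setting aside readthrough genes left 1243 pairs on nuclear chromosomes, and 66 of these lay in stretches of over 300 kb without any consensus peak and were not analysed here. Of the remaining 1177 pairs, 1069 (90.8%) had a consensus peak within 1 kb of both starts. By comparison, 9678 of 15947 single genes (60.7%) had a peak within 1 kb of their canonical start. A peak covered both starts in 767 pairs, equal to 65.2% of pairs analysed, whereas a peak covered the start in 52.5% of single genes. Pairs and genes are not replicates, and these shares were not tested.

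The 108 pairs without a consensus peak included several of tissue-restricted genes. Among them, named after the result was seen, were COL4A1/COL4A2 and COL4A6/COL4A5, which encode basement membrane collagens, DUOX2/DUOXA2 and DUOXA1/DUOX1, which make hydrogen peroxide in thyroid and epithelia, and ABCG5/ABCG8, the sterol transporter of liver and gut. Pairs with housekeeping genes were also among them, such as RPS25/TRAPPC4 and POLDIP2/TMEM199.

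Among pairs with a peak, 505 had 1 peak, 427 had 2, 124 had 3 and 13 had 4 or 5. Where a pair had several, the second reached a median of 29.2% of the CPM of the strongest, the peak of highest mean count (564 pairs). The strongest peak was centred between the starts in 710 pairs (66.4%), and its centre lay a median of 76.5 bp from the midpoint. It fell on the side of the minus-strand gene in 566 pairs and on the side of the plus-strand gene in 500, with a median signed offset of -4 bp. These sides follow the genomic strand, so the signed values cannot show how evenly a peak lay between the partners of a pair. Seen from each gene, the strongest peak was centred upstream of the start for 83.2% of paired genes (median offset -107 bp) and for 70.3% of single genes (median offset -59 bp). A peak centre at a divergent pair lies upstream of at least 1 partner wherever it falls. The values of paired genes are thus partly fixed by the arrangement and are not of 1 kind with those of single genes.

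**Figure D1:**
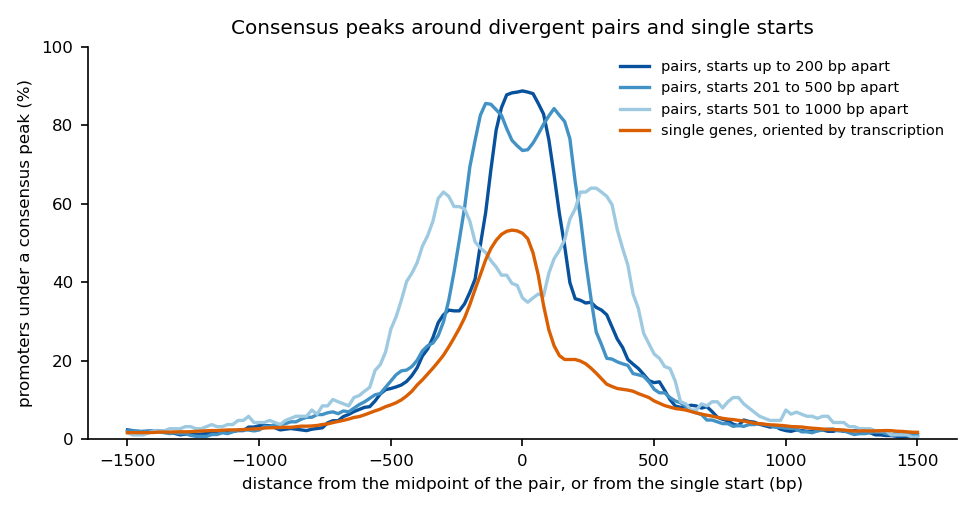
Share of promoters under a consensus peak (y axis, %) at each distance from the midpoint of a divergent pair or from the start of a single gene (x axis, bp; minus-strand gene to the left for pairs, upstream to the left for single genes), for 3 classes of start distance and for single genes. Pairs with starts up to 200 bp apart have 1 summit of 88.8% at the midpoint, pairs with starts 501 to 1000 bp apart have a summit near each start with 36% at the midpoint, and single genes reach 53.3% at 40 bp upstream.

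Sharing of a peak by both starts became rarer with the distance between them. With starts up to 100 bp apart, 219 of 245 pairs had a peak over both (95.2% of those with any peak). The share was 93.9% at 101 to 200 bp, 82.9% at 201 to 300 bp, 52.6% at 301 to 500 bp and 12.4% at 501 to 1000 bp. Only a peak wider than the distance between the starts can cover both, so this fall is partly fixed by peak width. Pairs with more than 1 peak made up 48.3% of pairs with a peak in the closest class and 64.5% in the widest. In the profile of peaks around pair midpoints, the single summit of close pairs gave way to a pair of summits with a dip between them.

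Bidirectional promoter peaks were more accessible, wider and slightly lower in GC than single-gene promoter peaks. The median level of the members was 11.1 and 13.3 CPM in the sgFLT3-DE-1 libraries and 13 and 14.8 CPM in the sgNT libraries. For single-gene promoter peaks the medians were 8.65 and 10.2 CPM with sgFLT3-DE-1 and 10.0 and 10.8 CPM with sgNT. The members had the higher median in 4 of 4 libraries, by 0.34, 0.36, 0.36 and 0.43 on the log2 scale. The mean difference was 0.37 ± 0.041 (SD, n = 4 libraries), a 1.3-fold higher level, with p = 0.13 by an exact two-sided sign-flip test over the libraries, which is the smallest p that 4 libraries allow. The difference was 0.22 ± 0.033 per kb of peak and 0.54 ± 0.040 between peaks over both starts and single-gene peaks over the start, each in 4 of 4 libraries with the same exact p of 0.13.

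Over all 4 libraries, the median member had 13.1 CPM (quartiles 5.98 and 28.5), and the range ran from 0.777 to 197 CPM. The median over all consensus peaks was 3.6 CPM, and 24.8% of members were among the top 5% of all peaks, against 19.1% of single-gene promoter peaks. The highest single-gene peak, at 1094 CPM, lay above the highest member.

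The median width was 307 bp (quartiles 179 and 462) for members and 266 bp (165 and 428) for single-gene promoter peaks, against 172 bp for peaks beyond 1 kb of a coding start. The widest member was the 1158 bp peak of RNF170/HOOK3 at chr8:42751477-42752634 and the narrowest the 79 bp peak of STRN3/AP4S1 at chr14:31494832-31494910. Median GC content was 65.2% (60 and 70.6) for members and 66.2% (58.6 and 72.4) for single-gene peaks, against 46.5% for the remaining distal peaks, and CpG dinucleotides per 100 bp were 8.62 and 8.48. The members were thus more uniform in base composition than single-gene promoters, with a narrower spread between quartiles. Widths and base composition belong to the regions rather than to the libraries and were given no test.

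The difference in level was also present between peaks of like width. Peaks of 200 to 300 bp had a median of 9.66 CPM among members and 8.87 CPM among single-gene peaks. At 300 to 400 bp the medians were 18.7 and 16 CPM, and at 500 to 700 bp 38.3 and 31.4 CPM. Members had the higher median in all 6 width classes examined. By GC content they had the higher median in 5 of 6 classes, from 8.15 against 5.37 CPM under 55% to 14.2 against 13.8 CPM at 70 to 75%, and the exception was the class of 75% and over, with 8.32 against 8.74 CPM.

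A single-gene promoter can itself be divergent when a noncoding RNA starts upstream. Of the single-gene peaks, 2897 had an annotated noncoding start divergent to the gene within 1 kb, a division made after the data were seen. Their median width was 307 bp, equal to that of the members, and their median levels were 12.4 and 13.5 CPM with sgFLT3-DE-1 and 14.4 and 14.8 CPM with sgNT. Against this class the members differed by -0.076 ± 0.075 on the log2 scale (SD, n = 4, exact p = 0.25), with -0.145 and -0.023 in the sgFLT3-DE-1 libraries and -0.135 and 0.000 in the sgNT libraries. Between peaks over both starts and single-gene peaks over the start with a noncoding partner, the difference was 0.11 ± 0.055 (exact p = 0.13). Median GC content was 67.8% (quartiles 61.5 and 72.9) in the noncoding-partner class and 65.8% (57.8 and 72.3) in the other 13931 single-gene peaks. The median width of these other peaks was 259 bp. In the spread of GC content the noncoding-partner class was nearer to the members than to these other peaks.

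**Figure D2:**
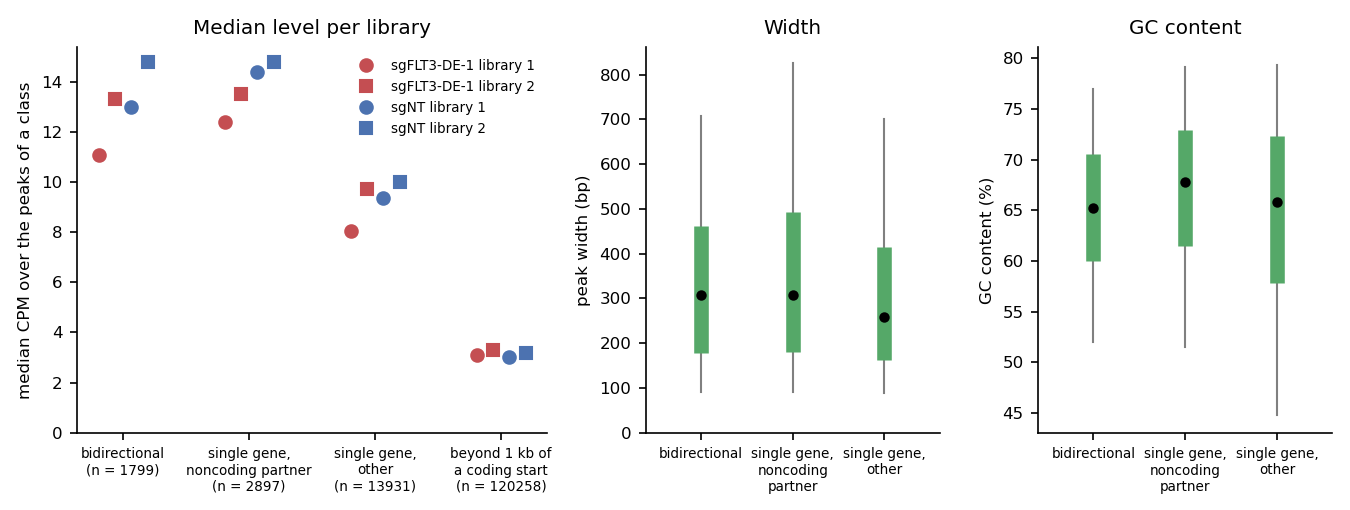
Left, median CPM over the peaks of each class (y axis) in each of the 4 libraries, with sgFLT3-DE-1 in red, sgNT in blue, circles for library 1 and squares for library 2. Middle and right, peak width (bp) and GC content (%), with dots for medians, bars for quartiles and lines from the 5th to the 95th percentile. Bidirectional promoters and single-gene promoters with a noncoding partner share a median width of 307 bp and similar levels, and both lie above the other single-gene promoters.

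Among members, width and level differed with the position of the peak. The 768 peaks over both starts had a median width of 454 bp and a median level of 25.1 CPM. The 437 peaks over 1 of the starts had 284 bp and 13 CPM, and the 594 peaks over neither had 158 bp and 5.59 CPM. In each library the order was the same: in sgNT library 1, for example, the medians were 25.4, 13 and 5.68 CPM. Among peaks over both starts, level and width rose with the distance they spanned. Starts up to 100 bp apart had a median of 15.6 CPM and 399 bp, starts 201 to 300 bp apart 33.5 CPM and 441 bp, and starts 501 to 1000 bp apart 68.4 CPM and 678 bp (21 peaks). A peak that covers more distant starts has to be wider, so width along this series is partly fixed by the definition. Level rose with width among all members, from 24.4 CPM at 400 to 500 bp to 59.1 CPM at 700 bp and over. Starts 101 to 200 bp apart had 23 CPM and 403 bp in peaks over both. This was a higher level than with starts up to 100 bp apart, at nearly the same median width. The part of width in the rise of level along the series was not tested.

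The 10 most accessible members had between 159 and 197 CPM on average, and 9 of them covered both starts. The highest was the 694 bp peak of NUDCD1/ENY2 at chr8:110346255-110346948. ENY2 is a subunit shared by the SAGA coactivator and the TREX-2 mRNA export complex. Its level was 247 and 149 CPM with sgFLT3-DE-1 and 223 and 167 CPM with sgNT.

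Among the others were FHIP1B/CNGA4 (186 CPM on average), TPR/ODR4 (183 CPM), KBTBD3/AASDHPPT (175 CPM), C4orf46/ETFDH (171 CPM) and PDCD10/SERPINI1 (167 CPM), with TMEM60/PHTF2, ABHD17B/C9orf85 and AZI2/ZCWPW2 at 162, 160 and 159 CPM. TPR is a protein of the nuclear pore basket, AASDHPPT activates acyl carrier proteins, and ETFDH passes electrons from fatty acid oxidation to the respiratory chain. In 10 of these 10 members, library 1 lay above library 2 with both guides, and the values of the guides overlapped. Their log2 fold changes between guides lay between -0.17 and 0.09.

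Many pairs best known as bidirectional promoters were accessible. Of 40 textbook pairs listed, 25 were divergent by the rule used here, and 21 of these had a member peak. COL4A1/COL4A2 and RAD51D/FNDC8 had no consensus peak within 1 kb of both starts, and TAP1/PSMB9 and SURF1/SURF2 were not analysed here. The peak of highest mean count of each of the 21 ranged from 10.9 to 118 CPM. In 16 of them this peak covered both starts. Among the highest were HSPD1/HSPE1 and NPAT/ATM.

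HSPD1/HSPE1 encodes both subunits of the mitochondrial chaperonin from starts 539 bp apart. Its 684 bp peak at chr2:198364517-198365200 had 118 and 95.1 CPM with sgFLT3-DE-1 and 135 and 111 CPM with sgNT. NPAT/ATM pairs a coactivator of histone genes with the kinase that signals DNA breaks. Its 843 bp peak at chr11:108093257-108094099 had 104 and 88.7 CPM with sgFLT3-DE-1 and 115 and 101 CPM with sgNT. The libraries of the guides overlapped in both.

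OARD1/NFYA, which includes a subunit of the CCAAT-binding factor NF-Y, had 68.6 CPM on average. PRKDC/MCM4 had 62.8 CPM and PPAT/PAICS, both enzymes of purine synthesis, 59.5 CPM. ATP5PF/GABPA, an ATP synthase subunit paired with an ETS factor, had 45.6 CPM. At the lower end, SIRT3/PSMD13 had 10.9 CPM and KBTBD4/NDUFS3 11.6 CPM. Between guides, both sgFLT3-DE-1 libraries lay below both sgNT libraries in 6 of the 21 peaks, above in 1, and overlapped in 14. Over all 82558 peaks tested, 13.8% lay below and 13.7% above in this sense. Among all tested members the shares were 27.7% and 6.57%, and among tested single-gene promoter peaks 23.6% and 7.68%. The smallest unadjusted p among the 21 was 0.0659, for U2AF1L4/PSENEN, and the log2 fold changes ranged from -0.62 to 0.37. For HSP90AA1/WDR20, with a cytosolic HSP90 chaperone, the peak counted here lay over neither start. Its other peak, named after its values were seen, covered both starts and had fewer counts on average but the higher level, 16.7 against 16.5 CPM, with a log2 fold change of -0.65 (SE 0.29) and an unadjusted p of 0.0327 by edgeR.

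Genes of several housekeeping complexes were often arranged as divergent pairs. Against the 12.7% of all coding genes in pairs, the share was 39.1% for DNA replication and repair (52 of 133 genes), 36.0% for the respiratory chain and ATP synthase (40 of 111), 35.9% for the mitochondrial ribosome (28 of 78) and 33.8% for replication-dependent histones (22 of 65). It was 26.5% to 29.0% for the proteasome, RNA polymerase and Mediator, the spliceosome, tRNA synthetases, translation factors, chaperones and cell cycle genes, and 19.8% for the cytosolic ribosome. Zinc finger factors (10.6%), ubiquitin enzymes (9.16%) and B-lineage and leukemia factors (4.88%) lay below the share over all genes. Arrangement is a property of the annotation, so these shares describe the genome and not the cells.

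Of the paired genes in these lists, most had a member peak, for example 50 of 52 in DNA replication and repair, 40 of 40 in cell cycle and mitosis and 27 of 28 in the mitochondrial ribosome. The lowest shares were those of the cytosolic ribosome (12 of 17), replication-dependent histones (16 of 22) and chaperones (22 of 29). Over all pairs analysed, 90.8% had a peak. Median levels of the lists' peaks ranged from 7.54 CPM for the mitochondrial ribosome to 25.9 CPM for the 4 peaks of the B-lineage list, beside 13.1 CPM over all members. The DNA replication and repair list had 18 CPM over 81 peaks and the respiratory chain 10.7 CPM over 68. MRPL50/ZNF189 had the highest peak of the mitochondrial ribosome list at 140 CPM, with 177 and 107 CPM under sgFLT3-DE-1 and 154 and 122 CPM under sgNT. Other high examples were THAP5/DNAJB9, with an endoplasmic reticulum chaperone, at 147 CPM, LNX2/POLR1D, with a subunit shared by RNA polymerases I and III, at 143 CPM, and EIF3E/EMC2, with a translation initiation subunit, at 129 CPM. KIF18A/METTL15, with a mitotic kinesin, reached 127 CPM and UBE2D3/CISD2, with a ubiquitin-conjugating enzyme, 123 CPM. Both members of a pair belonged to the same list in 13 pairs of zinc finger genes and 8 pairs of histone genes.

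The B-lineage and leukemia list held 2 paired genes. An annotated start of RAG1, the recombinase of antigen receptor genes, lies 100 bp from that of TRAF6. Annotated starts include alternative ones, and which RAG1 start these cells use was not tested. The 501 bp peak at chr11:36531507-36532007 had 38.0 and 47.5 CPM with sgFLT3-DE-1 and 38.8 and 36.8 CPM with sgNT. AFF1, the usual fusion partner of MLL in infant leukemia, is paired with ENSG00000285458, and its 538 bp peak had 32.1 and 33.2 CPM with sgFLT3-DE-1 and 39.1 and 42.4 CPM with sgNT. The log2 fold change was 0.18 (SE 0.25) for this peak of TRAF6/RAG1, whose libraries overlapped, with an unadjusted p of 0.479 by edgeR. For the 538 bp peak of ENSG00000285458/AFF1 it was -0.32 (SE 0.25), with an unadjusted p of 0.214 by edgeR. Its sgFLT3-DE-1 libraries both lay lower, as in 27.7% of all tested members. The smaller peaks of these pairs, over neither start, had the opposite sign. They had -0.16 (SE 0.51) for TRAF6/RAG1 and 0.18 (SE 0.32) for ENSG00000285458/AFF1.

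Histone pairs stood apart from the other members in base composition. Their 11 member peaks had a median GC content of 48.8%, a median width of 457 bp and a median level of 23.5 CPM. H2BC11/H2AC11, at chr6:27100392-27101076 with starts 248 bp apart, had 35.5 and 40.9 CPM with sgFLT3-DE-1 and 53.1 and 56.9 CPM with sgNT. This was a log2 fold change of -0.52 (SE 0.25), with an unadjusted p of 0.048 and an adjusted p of 1 by edgeR. H2BC12/H2AC12 had 30.9 and 34.9 against 39.4 and 41.6 CPM, and H2BC13/H2AC13 22.9 and 25.2 against 27.4 and 32.8 CPM. Both sgFLT3-DE-1 libraries lay below both sgNT libraries in these 3 peaks and in 6 of the 11 in all. The shares were 27.7% over all tested members and 13.8% over all peaks tested.

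To see what the sequences share, a fixed window of 300 bp around the centre of each peak was searched for the motifs listed above. In peaks narrower than 300 bp the window reached beyond the peak. Median widths were 307 bp for members and 266 bp for single-gene peaks. A motif in this window is written below as a motif of the peak. An ETS motif, bound by GABPA, ELK and ETS1 among others, was found in 371 of 1799 member peaks (20.6%), in 12.5% of single-gene peaks and in 13.2% of all promoter peaks. Restricted to peaks over the starts, the shares were 30.1% of members and 17.6% of single-gene peaks, and within windows of 60 to 70% GC they were 22.5% and 16.8%. ZNF143, a factor of snRNA and housekeeping promoters, had its motif in 5.23% of members, 2.56% of single-gene peaks and 2.84% of all promoter peaks. NRF1, a regulator of mitochondrial genes, had 4.11%, 2.25% and 2.44%.

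The CCAAT box was present in 33.1% of members, 28.2% of single-gene peaks and 28.8% of all promoter peaks, and the GC box in 68.9%, 63.2% and 63.5%. YY1 motifs were found in 3.56% of members, against 2.17% of single-gene peaks and 2.29% of all promoter peaks, and BANP motifs in 2.06%, 1.2% and 1.29%. The CRE was found in 2.61%, 1.93% and 2.02%, the E-box in 9.73%, 8.46% and 8.51%, and the heat shock element in 5.11%, 4.42% and 4.51%. The TATA box showed the opposite order, with 3.17% of members, 4.9% of single-gene peaks and 4.78% of all promoter peaks. Single-gene peaks with a noncoding partner lay close to the members for the TATA box (3.42%), the GC box (69.4%) and the CRE (2.42%). For ETS, ZNF143, NRF1, YY1 and the CCAAT box they lay further below, at 15.3%, 2.04%, 2.73%, 2.17% and 28.8%. BANP, the E-box and the heat shock element had 1.76%, 8.77% and 4.11% in that class. These shares describe fixed sequences and were given no test.

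**Figure D3:**
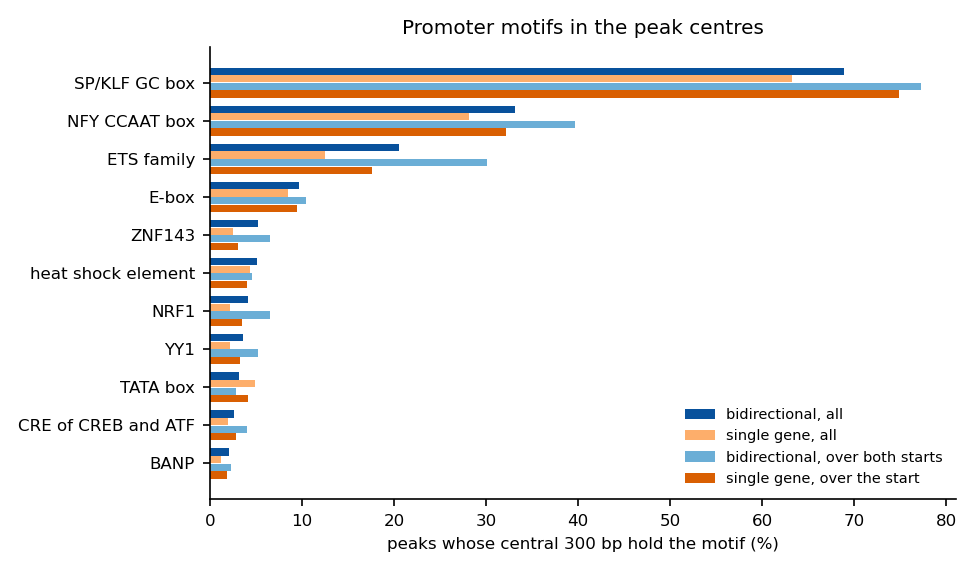
Share of peaks (x axis, %) for which the fixed 300 bp window around the peak centre holds each motif on either strand. Shares are given for all bidirectional and all single-gene promoter peaks and for those over the starts. ETS motifs reach 30.1% of bidirectional peaks over both starts and 17.6% of single-gene peaks over the start, and the TATA box is the motif with the smaller share in bidirectional peaks.

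Among the 768 members over both starts, the 305 with a CCAAT box had a median of 33.4 CPM and those without 19.9 CPM, at median widths of 455 and 453 bp. The ETS motif went the other way, with 21.7 CPM in peaks that held it and 26.3 CPM in peaks that did not, at widths of 413 and 472 bp. For the GC box the medians were 25.1 and 24.7 CPM. No motif here was tied to a measured factor, and these levels are a description of peaks within the same libraries.

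Finally, the members were compared between guides to ask whether silencing of the FLT3 enhancer was accompanied by a change at bidirectional promoters. Of the 1799 members, 1674 passed the filter on low counts and were tested. None passed an FDR of 0.05 with edgeR when the guide was the only term, beside 0% of all tested peaks lower and 0.00242% higher (2 peaks, both near a single gene). At an unadjusted p under 0.05, 51 members were lower and 4 higher, or 3.05% and 0.239%, beside 1.07% and 0.827% of all tested peaks. For single-gene promoter peaks these shares were 2.58% and 0.3%. At that p DESeq2 gave 13 members lower and 0 higher, beside 0.155% and 0.0824% of all tested peaks. With limma-voom it was 59 and 1, beside 1.21% and 0.388%. Neither had a member past the FDR with the guide as the only term. The number lower was sensitive to single libraries, among members and over all tested peaks. With a library left out, the members' median log2 fold change ranged from -0.20 to -0.12, beside -0.020 to 0.029 over all tested peaks.

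Small differences of 1 direction were spread over the members. The median log2 fold change was -0.13 (quartiles -0.30 and 0.045), beside 0.015 over all tested peaks, and 1161 of 1674 estimates (69.4%) lay below 0, beside 48.1% of all peaks. The corresponding median was -0.09 for single-gene promoter peaks, with 62.7% below 0. In 463 members (27.7%) both sgFLT3-DE-1 libraries lay below both sgNT libraries and in 110 (6.57%) above, beside 13.8% and 13.7% of all tested peaks. The median over members of library 1 with sgFLT3-DE-1 minus library 1 with sgNT was -0.15 on the log2 scale, and of library 2 minus library 2 it was -0.11. Within a guide, library 1 minus library 2 had a median of -0.02 under sgNT and -0.10 under sgFLT3-DE-1. The shift between the sgFLT3-DE-1 libraries was therefore close in size to the shift between guides, and that between the sgNT libraries was smaller.

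The difference between guides moved with base composition. Among members the median log2 fold change was -0.01 under 55% GC, -0.10 at 60 to 65%, -0.17 at 70 to 75% and -0.21 at 75% and over. The same order was seen in single-gene promoter peaks, from 0.03 to -0.16, and in peaks beyond 1 kb of a coding start, from 0.06 to -0.16. With a correction for GC content the median of the members was -0.03 and 55.4% of estimates lay below 0. The cause of this relation was not tested. By start distance the median ran from -0.05 with starts up to 100 bp apart through -0.10, -0.14 and -0.17 to -0.18 with starts 501 to 1000 bp apart.

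**Figure D4:**
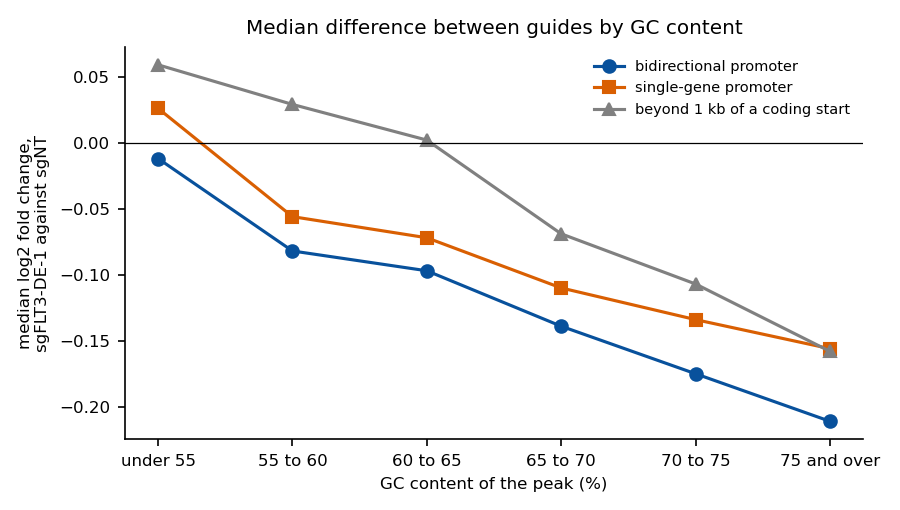
Median log2 fold change of sgFLT3-DE-1 against sgNT (y axis) by GC content of the peak (x axis, %) for tested peaks of 3 classes. The medians fall with GC content in each class, and those of the bidirectional promoters run from -0.01 to -0.21.

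To compare the classes over libraries, the median log2 CPM of tested single-gene promoter peaks was subtracted from that of tested members in each library. With sgNT this gave 0.27 and 0.34, with sgFLT3-DE-1 0.15 and 0.23. The difference between guides was -0.12 (pooled SD 0.054), with p = 0.333 by an exact two-sided permutation test, the smallest p that 2 against 2 libraries allow. It was 0.01 when only peaks over the starts were compared and -0.008 with the peak of highest mean count of each promoter, so its size and sign depended on the definition of the members. It also differs from the difference between the median fitted log2 fold changes of the classes, which was -0.035.

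The members with the smallest p in each direction are given for each library, with adjusted p from the fit in which the guide was the only term. DEAF1/TMEM80, at chr11:695009-695419 over 1 of the starts, had 24.1 and 16.8 CPM with sgFLT3-DE-1 and 39.4 and 37.2 CPM with sgNT. DEAF1 is a transcription factor with roles in immune tolerance and neural development. The log2 fold change was -0.92 (SE 0.27), with an unadjusted p of 0.00174 and an adjusted p of 1 by edgeR.

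ALG12/CRELD2, at chr22:50312032-50312328, covers the interval printed above. ALG12 is a mannosyltransferase of N-glycan assembly and CRELD2 an endoplasmic reticulum stress protein. The peak had 13.3 and 13.3 CPM with sgFLT3-DE-1 and 24.4 and 26.8 CPM with sgNT, a log2 fold change of -0.94 (SE 0.28, unadjusted p 0.00204 by edgeR). OIP5/NUSAP1, a pair of a centromere and a mitotic spindle protein, had 5.56 and 7.52 against 11 and 18 CPM in a peak over neither start. USP37/CNOT9, with a deubiquitinase and a subunit of the CCR4-NOT deadenylase, had 5.56 and 4.64 against 10.7 and 11.2 CPM. VRK3/ZNF473 had 11.4 and 11.5 against 23.4 and 18.4 CPM. In all 5 the guides did not overlap, the log2 fold changes were between -1.11 and -0.87, and the adjusted p was 1. Because these members were picked by p, the lack of overlap is largely fixed by the choice and adds no support. Both sgFLT3-DE-1 libraries lay below both sgNT libraries in 27.7% of all tested members and 13.8% of all tested peaks.

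The members with the smallest p in the upward direction were weak peaks, none of them over both starts. CCPG1/PIERCE2 at chr15:55700028-55700109, near a receptor for autophagy of the endoplasmic reticulum, had 22 counts in each sgFLT3-DE-1 library and 6 in each sgNT library (log2 fold change 1.38, SE 0.53, unadjusted p 0.0138 by edgeR). PRIM1/HSD17B6, with the small subunit of DNA primase, had 12 and 19 against 3 and 4 counts. AIDA/BROX had 27 and 48 against 17 and 12 counts, and RPL4/ZWILCH, with a protein of the large ribosomal subunit, 13 and 14 against 4 and 2. IRF3/BCL2L12, with a factor of the interferon response, had 14 and 35 against 8 and 9 counts and an unadjusted p of 0.0536. CCPG1/PIERCE2, PRIM1/HSD17B6 and RPL4/ZWILCH were too low for the filter on low counts in both sgNT libraries. They were tested only because of the sgFLT3-DE-1 libraries, in which they are high. Their fold changes and p-values therefore cannot count as support for a rise. All 5 had an adjusted p of 1.

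**Figure D5:**
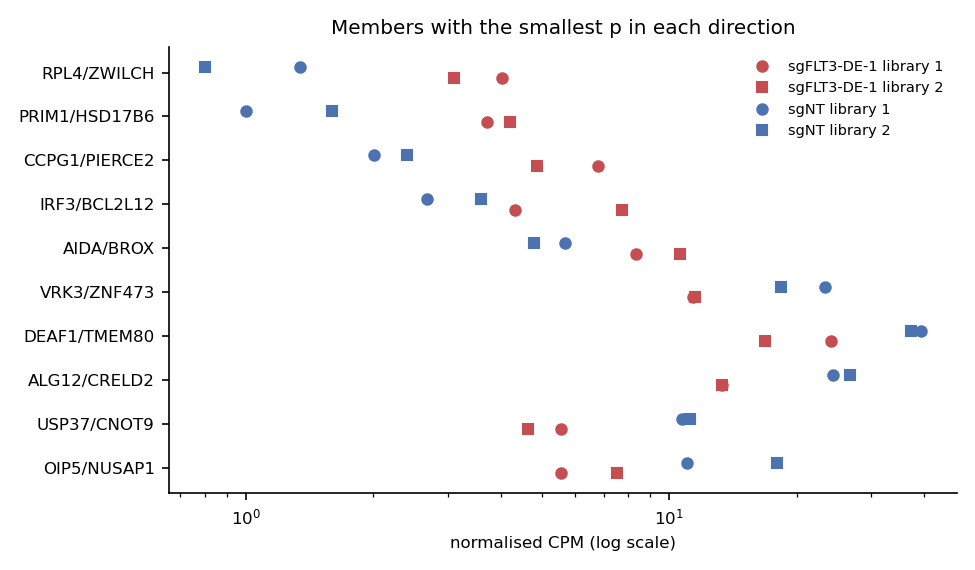
Normalised CPM on a log axis (x axis) of the 5 members with the smallest p in each direction (y axis) in each library, with sgFLT3-DE-1 in red, sgNT in blue, circles for library 1 and squares for library 2. In each row the libraries of the guides do not overlap, which is largely fixed by the choice of members by p. The 5 members that were higher with sgFLT3-DE-1 have the lower mean levels over the 4 libraries.

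The members nearest to the guide site were the 3 peaks of LNX2/POLR1D, 648 to 649 kb away on chromosome 13. The strongest, at chr13:28194613-28195025, had 155 and 129 CPM with sgFLT3-DE-1 and 154 and 134 CPM with sgNT, a log2 fold change of -0.02 (SE 0.27). The smaller ones had log2 fold changes of 0.41 (SE 0.34) and 0.31 (SE 0.30), with unadjusted p of 0.245 and 0.303 by edgeR.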

How the data were processed

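ATAC-seq was performed on 4 libraries of SEM cells, and the authors deposited raw counts per consensus peak and the peak positions (a BED file, other columns, starts counted from 0; printed starts are 1 higher). For mapping to hg19, Bowtie2 2.2.9 after cutadapt 1.18 is given in the protocol, whereas the submitters' processing notes list BWA, with MACS2 2.1.1.20160309, bedtools 2.24.0, SAMtools 1.2 and Trim Galore 0.4.4, so which aligner made the deposited counts cannot be told apart. Per the study's supplementary methods, peaks were called from short fragments and kept when reproducible. Which fragments were counted, and any shift for the transposase, are not given in the sources used here. The coordinates fitted GRCh37, with 0 peaks beyond a chromosome end, and starts came from basic coding transcripts of GENCODE 44 on that build. Many annotated starts are alternative: 469 members lacked canonical starts on both sides.

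Counts were filtered with filterByExpr, scaled by TMM and tested with the quasi-likelihood test of edgeR 4.0.16 (R 4.3.3), with the guide as the only term and Benjamini-Hochberg adjustment over 82558 peaks. CPM is per 1000000 counts in tested peaks after TMM, and log2 CPM used a prior count of 2. Classes were compared over libraries by exact tests. Alternatives used DESeq2 1.42.0, limma 3.58.1 and other scalings, filters and member definitions. Totals of 2683477 to 4831164 limit the precision at weak peaks, and PCR copies were not told apart here.

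Members named were the 10 of highest CPM, the 5 of smallest p in each direction, the peak of highest mean count of each textbook pair, up to 3 such peaks of each gene list, and the widest and narrowest. The members, gene lists and motifs were chosen with earlier results of these data known. Some members that these rules name are not reported here. Exceptions named after their values were seen are marked as such in the text.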

Additional observations from a re-analysis of the deposited data

How the results depend on the processing

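The higher level of members than of single-gene promoters held its direction under every processing choice and member definition fixed at the outset (log2 difference 0.22 to 0.54, and 0.36 to 0.39 with a library left out), but was -0.076 against single-gene promoters with a divergent noncoding start, a comparison added after seeing the data, against which the width ratio was 1.00 and the GC difference -2.62 points. The width ratio was 1.15 and stayed within 10% of this under those choices. The GC difference of -1 points was -1.52 with gene-level starts and -1.95 between peaks over the starts. The count of members past the FDR was 0 under the other alternatives and with each library left out (0 to 0). With the replicate number as a block it was 6, all lower (DEAF1/TMEM80, ALG12/CRELD2, OIP5/NUSAP1, ACIN1/C14orf119, ZBTB4/POLR2A and RHOA/TCTA). Over all 82558 tested peaks the block gave 57 lower and 17 higher at that FDR. With the replicate block and GC correction 1 member passed, beside 8 lower and 13 higher over all tested peaks. At an unadjusted p under 0.05 the block gave 230 members lower and 17 higher of the 1674 tested, beside 4.58% and 3.68% of all tested peaks. The adjusted p under the block was 0.00103 for DEAF1/TMEM80 and 0.0179 for ALG12/CRELD2. Deviations of same-numbered libraries correlated at 0.397. Across peaks, log2 CPM correlated at 0.915 and 0.922 between same-numbered libraries of the 2 guides and at 0.875 and 0.887 within a guide, but the labels do not say what a number marks, and the libraries were not treated as pairs. The median difference of the members between guides ranged from -0.20 to -0.12 with a library left out and was -0.18 without a filter. The difference between guides of members minus single-gene promoters, -0.12, was -0.044 without a filter, -0.056 at a mean count of at least 50, -0.048 with gene-level starts, -0.036 within 500 bp, -0.008 with the peak of highest mean count of each promoter, -0.042 against promoters with a noncoding partner, 0.011 between peaks over the starts, and -0.11 to -0.041 with a library left out. The cause of these changes was not tested.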
